A study of Bos taurus with 6 samples.

Results

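NUMB, NUMBL, ITCH, MIB1, MIB2, DTX1, DTX2, DTX3, DTX4 and FBXW7 encode adaptors and ubiquitin ligases that act on NOTCH receptors or their ligands. These 10 genes, of 15314 named genes, were taken by their symbol in the deposited table. All 10 were listed, and 8 reached the minimum mean level of 10 and entered the test of 12070 genes. DTX1 and DTX4 did not.

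The table holds 6 RNA-seq libraries of polyadenylated RNA from late morulae of cattle, collected 6 days after fertilization in vitro. Embryos received a nonspecific small interfering RNA (the control), one against the receptor gene NOTCH1, or one against RBPJ, the DNA-binding partner of the activated receptor. There were 2 libraries for each of the 3 groups, and every library pooled 15 whole embryos, so that a level is an average over the cells of many embryos. Fewer cells of a type and less RNA per cell cannot be told apart in such pools, and injection leaves some of the targeted transcript.

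NOTCH signalling passes between touching cells, and ubiquitin is attached at several of its steps. In the cell that sends the signal, MIB1 and MIB2 attach ubiquitin to the ligands, whose uptake then pulls on the receptor. In the cell that receives it, NUMB and NUMBL are adaptors that recruit the endocytic machinery and restrain NOTCH, ITCH is a ligase of the NEDD4 family that marks the receptor for degradation, and the Deltex proteins bind the receptor's intracellular part. FBXW7 is the substrate-binding subunit of an SCF ubiquitin ligase that removes the activated intracellular part of NOTCH, as well as MYC and cyclin E. NUMB is best known as a determinant that a dividing cell can hand unequally to its daughters. Its position depends on cell polarity, which is set up as the morula compacts.

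The values are scaled read counts. They are not divided by transcript length, so levels were compared between libraries and not between genes. Library totals ran from 10365695 to 10815554. RBPJ stood at 447 and 391 in control embryos and at 121 and 94.5 in its knockdown (limma, adjusted p = 0.00143). NOTCH1 stood at 69.6 and 140 in the control, at 48.0 and 49.5 in the NOTCH1 knockdown (limma, adjusted p = 0.634) and at 50.02 and 125 in the RBPJ knockdown. The lower NOTCH1 values of the embryos named for its knockdown thus did not pass the test, and replicate 1 of the RBPJ knockdown held as little NOTCH1 as they did. POU5F1, from the pluripotency list, stood at 10911 or more in every library, and KRT8, from the trophectoderm list, at 7578 or more. Other genes on these lists had low values. NANOG, a pluripotency gene, stood at 125 to 200, and TFAP2A, a trophectoderm gene, at 6.37 to 31.1. The table held 8 of 10 genes on the pluripotency list and 12 of 12 on the trophectoderm list. Cumulus, granulosa and fibroblast markers, of which 10 of 11 were in the table, summed to between 617 and 702. COL1A1 stood at 286 to 346 and COL3A1 at 1.09 to 8.45. Blood and immune cell markers, with 8 of 8 in the table, summed to between 1281 and 1654. HBA, at 976 to 1380, made up most of each sum, and HBB had 8.63 or less. PTPRC, CD3E and TYROBP, 3 of the 8, were each listed at 0 in at least 1 library. For oocyte markers, with 10 of 10 in the table, the sum was 397 and 505 in the control, 116 and 336 in the NOTCH1 knockdown and 185 and 354 in the RBPJ knockdown. NPM2, listed at 0 in replicate 1 of the NOTCH1 knockdown, was the only oocyte marker listed at 0 in any library.

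None of the 8 genes passed the test in any comparison (limma on log2 values, Benjamini-Hochberg adjusted p below 0.05 over all 12070 genes). Among all genes the share that passed was 0% in the NOTCH1 knockdown and 0.00829% in the RBPJ knockdown, where RBPJ itself was the 1 gene, a call that was lost without the variance trend (limma, adjusted p = 0.326). At an unadjusted p below 0.05 there were 880 and 524 genes. With the replicate number as a block, 138 and 12 genes passed, and again none of the 8 did. NUMBL had the smallest p of the 8 in both knockdowns, and its level in all 4 knockdown libraries lay above both control libraries. The others differed little between groups: apart from DTX3, the lowest and highest libraries of each lay within 1.35-fold of each other.

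**Figure D1:**
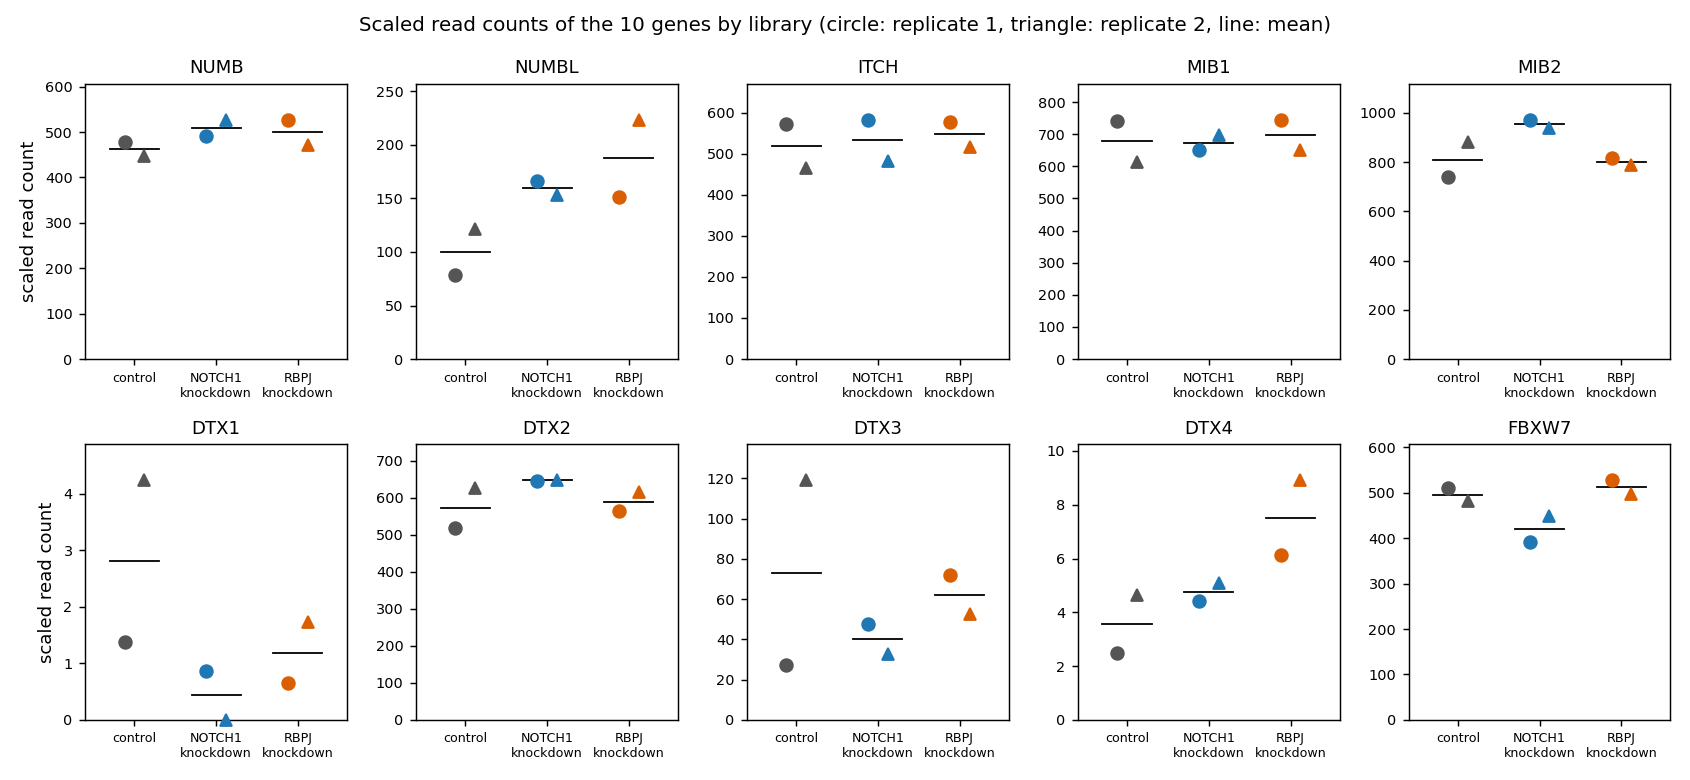
Scaled read count (vertical axis, linear from 0, a scale of its own for each gene) of the 10 genes in control, NOTCH1 knockdown and RBPJ knockdown libraries; circles are replicate 1, triangles replicate 2 and lines the mean of 2. NUMBL is higher in the 4 knockdown libraries than in both controls, DTX3 is spread most within the control, and DTX1 and DTX4 stay below 10.

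NUMB, the adaptor that restrains NOTCH through endocytosis, differed little over the 6 libraries. It had 479 and 447 in the control, 492 and 528 in the NOTCH1 knockdown, and 527 and 472 in the RBPJ knockdown. The NOTCH1 knockdown libraries thus lay just above both controls, and the RBPJ knockdown overlapped them. The order of the group means was control (463 ± 22.3, SD, n = 2), RBPJ knockdown (500 ± 38.9, SD, n = 2) and NOTCH1 knockdown (510 ± 25.1, SD, n = 2), and no neighbours differed beyond the spread that the model allows. NUMB had a log2 fold change of 0.14 (standard error 0.14) in the NOTCH1 knockdown (limma, adjusted p = 0.871) and of 0.11 in the RBPJ knockdown (adjusted p = 0.992). The 95% intervals of these changes ran from 0.896-fold to 1.35-fold and from 0.878-fold to 1.33-fold. In the RefSeq annotation, whose assembly is not the one named by the submitters, NUMB overlaps PAPLN, which had 28.8 or less in every library.

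NUMBL, the second NUMB-type adaptor, had higher values in both knockdowns, though neither difference passed. The control libraries had 78.1 and 121, the NOTCH1 knockdown libraries 167 and 153, and the RBPJ knockdown libraries 151 and 224. All 4 knockdown libraries lay above both controls, as they did for 7.98% of the genes tested. The means were 99.6 ± 30.4 (SD, n = 2) in the control, 160 ± 9.67 (SD, n = 2) in the NOTCH1 knockdown and 188 ± 51.1 (SD, n = 2) in the RBPJ knockdown. In the NOTCH1 knockdown this was a log2 fold change of 0.71 (standard error 0.26), with a 95% interval of 1.10-fold to 2.42-fold (limma, adjusted p = 0.567). In the RBPJ knockdown it was 0.91, with a 95% interval of 1.27-fold to 2.78-fold (limma, adjusted p = 0.983). Both intervals, which are for the single gene and not corrected for the number of genes, lay above 1. In the RBPJ knockdown, NUMBL ranked 34 of 12070 genes by p (limma, unadjusted p = 0.00415). In the NOTCH1 knockdown it ranked 385 (limma, unadjusted p = 0.0181).

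The 2 comparisons share the control libraries, and the size of the NUMBL difference depended on which of them was kept. Without replicate 1 of the control, the log2 fold change of NUMBL was 0.39 in the NOTCH1 knockdown and 0.60 in the RBPJ knockdown. Without replicate 2 of the control it was 1.02 and 1.23. With the replicate number as a block the adjusted p was 0.123 and 0.134 (limma). Oocyte marker sums were lower in the 4 knockdown libraries than in both controls, as given above. Within the control and within the RBPJ knockdown, the library with the higher sum also had the higher NUMBL value. Within the NOTCH1 knockdown it had the lower one. The part of oocyte markers in the NUMBL values was not tested. Between the knockdowns NUMBL had a log2 difference of -0.20 (NOTCH1 minus RBPJ; 95% interval 0.587-fold to 1.28-fold; limma, adjusted p = 0.999).

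Read against NUMB within the same library, NUMBL was higher in the knockdowns. This mostly repeats the NUMBL values given above: the lowest and highest libraries differed 1.18-fold in NUMB and 2.86-fold in NUMBL. The NUMBL to NUMB ratio of scaled counts was 0.163 and 0.271 in the control, 0.339 and 0.290 in the NOTCH1 knockdown, and 0.287 and 0.474 in the RBPJ knockdown. Only the change of this ratio between libraries can be read, since the genes' lengths are not taken out. Its 4 knockdown values lay above both control values, but replicate 2 of the control, at 0.271, was close to the lowest of them, at 0.287. For a single value, an exact two-sided permutation test of 2 libraries against 2 cannot give a p below 0.333.

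**Figure D2:**
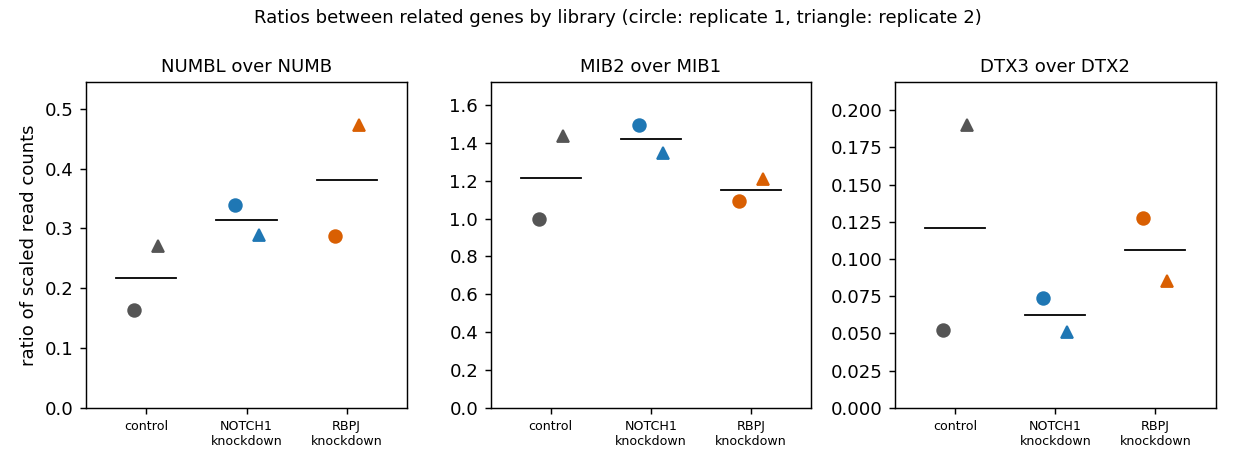
Ratio of scaled read counts (vertical axis, linear from 0) of NUMBL to NUMB, MIB2 to MIB1 and DTX3 to DTX2 in each library; circles are replicate 1, triangles replicate 2 and lines the mean. The NUMBL to NUMB ratio is lowest in the control libraries, at 0.163 and 0.271, and the other 2 ratios overlap between control and knockdowns.

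Of all genes tested, ILDR2 and TMEM179 followed NUMBL most closely over the 6 libraries. After each gene's mean was subtracted, their log2 values differed from those of NUMBL by a root mean square of 0.087 and 0.10, against a spread of NUMBL itself of 0.46. ILDR2 stood at 15.7 and 24.8 in control libraries, against 30.5 to 52.1 in the knockdowns. TMEM179 had 8.73 to 30.4 over the libraries. Both had few reads, and they were picked for this likeness, so their values are a description.

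MIB1, the ligase that activates NOTCH ligands in most tissues studied, had 741 and 614 in the control, 650 and 698 in the NOTCH1 knockdown, and 745 and 650 in the RBPJ knockdown. All 3 groups overlapped. On the log2 scale the difference in MIB1 was -0.0020 in the NOTCH1 knockdown and 0.05 in the RBPJ knockdown (standard error 0.14; limma, adjusted p = 0.998 and 0.995). The 95% interval in the NOTCH1 knockdown ran from 0.810-fold to 1.23-fold. Leaving out replicate 1 of the control or replicate 1 of the NOTCH1 knockdown turned the first value positive (0.13 and 0.05). Annotated non-coding RNAs overlap MIB1 and FBXW7 in RefSeq.

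MIB2, the related ligase, was the member of the pair that was higher in the NOTCH1 knockdown by sign. It had 738 and 882 in the control, 973 and 940 in the NOTCH1 knockdown, and 816 and 787 in the RBPJ knockdown. Both NOTCH1 knockdown libraries lay above both controls (18.6% of genes tested) and above both RBPJ knockdown libraries (17.5%). The share of genes with both orders at once was not counted. The RBPJ knockdown lay between the control libraries. Against the control its log2 fold change was 0.24 (standard error 0.13; 95% interval 0.980-fold to 1.43-fold; limma, adjusted p = 0.727), and it was 0.12 without replicate 1 of the control. In the RBPJ knockdown it was -0.0097 (limma, adjusted p = 0.998). The 2 knockdowns differed by 0.25 in MIB2 (NOTCH1 minus RBPJ; 95% interval 0.987-fold to 1.44-fold; limma, adjusted p = 0.999), so the difference between them did not pass either. The MIB2 to MIB1 ratio was 0.996 and 1.44 in the control, 1.496 and 1.35 in the NOTCH1 knockdown, and 1.09 and 1.21 in the RBPJ knockdown, and its control values spanned nearly the whole range.

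ITCH, the NEDD4-family ligase, differed more between replicate numbers than between groups. It had 574 and 466 in the control, 583 and 483 in the NOTCH1 knockdown, and 578 and 516 in the RBPJ knockdown. Replicate 1 was above replicate 2 in all 3 groups, as for 19.5% of genes tested. Its log2 fold change was 0.04 in the NOTCH1 knockdown and 0.08 in the RBPJ knockdown (standard error 0.15; limma, adjusted p = 0.973 and 0.995). The 95% intervals ran from 0.814-fold to 1.297-fold and from 0.837-fold to 1.33-fold. Without replicate 2 of the control both values turned negative (-0.11 and -0.07). An annotated pseudogene overlaps ITCH in RefSeq, and reads of overlapping genes could not be separated here.

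Among the Deltex genes, DTX2 was the best covered and DTX1 and DTX4 were barely present. DTX2 had 519 and 626 in the control, 646 and 647 in the NOTCH1 knockdown, and 564 and 614 in the RBPJ knockdown. The NOTCH1 knockdown libraries lay above both controls (18.6% of genes tested) and above both RBPJ knockdown libraries (17.5%). Replicate 1 was below replicate 2 in each group, as for 18.2% of genes tested. For DTX2 in the NOTCH1 knockdown the log2 fold change was 0.18 (standard error 0.14; 95% interval 0.922-fold to 1.39-fold; limma, adjusted p = 0.828). It was 0.05 in the RBPJ knockdown (95% interval 0.840-fold to 1.27-fold; limma, adjusted p = 0.995). Replicate 1 of the control carried most of the first value, which was 0.05 without it. Without that library the RBPJ knockdown value was -0.09.

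DTX3, a Deltex protein that lacks the NOTCH-binding domain of the other members, was the most variable of the 8. Its control libraries had 27.0 and 119, which enclosed the 47.7 and 32.8 of the NOTCH1 knockdown and the 71.8 and 52.5 of the RBPJ knockdown. DTX3 had a log2 fold change of -0.51 (standard error 0.53) in the NOTCH1 knockdown (limma, adjusted p = 0.878) and of 0.11 in the RBPJ knockdown (limma, adjusted p = 0.998). The first interval ran from 0.315-fold to 1.56-fold, wide enough to hold a decrease and an increase. One control library decided the sign: the value in the NOTCH1 knockdown was -1.56 without replicate 1 of the control and 0.54 without replicate 2, and the value in the RBPJ knockdown was -0.94 and 1.16. Replicate 2 of the control, where DTX3 was highest, also had the highest sum of oocyte markers, 505. Replicate 1 of the control, where DTX3 was lowest, had the next highest sum, 397. The part of oocyte markers in the DTX3 values was not tested. Between the knockdowns, both NOTCH1 libraries lay below both RBPJ libraries, with a log2 difference of -0.62 (95% interval 0.292-fold to 1.45-fold; limma, adjusted p = 0.999). The DTX3 to DTX2 ratio was 0.0520 and 0.190 in the control, 0.0739 and 0.0507 in the NOTCH1 knockdown, and 0.127 and 0.0854 in the RBPJ knockdown. Replicate 2 of the NOTCH1 knockdown lay just below the lower control library, and the other 3 knockdown values lay between the control libraries.

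DTX1, the best studied mammalian Deltex gene, was listed at 1.37 and 4.24 in the control, 0.860 and 0 in the NOTCH1 knockdown, and 0.647 and 1.73 in the RBPJ knockdown. These values correspond to roughly 0 to 4 reads, too few for any comparison. DTX4 had 2.50 and 4.63 in the control, 4.42 and 5.10 in the NOTCH1 knockdown, and 6.14 and 8.91 in the RBPJ knockdown. Its RBPJ knockdown libraries were the highest of the 6, but all values stand for fewer than 9 reads.

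FBXW7, the SCF subunit that disposes of activated NOTCH, was lower by sign in the NOTCH1 knockdown and level in the RBPJ knockdown. It had 510 and 481 in the control, 391 and 449 in the NOTCH1 knockdown, and 528 and 497 in the RBPJ knockdown. Both NOTCH1 knockdown libraries lay below both controls (17.2% of genes tested) and below both RBPJ knockdown libraries (15.5%). The RBPJ knockdown overlapped the control. Against the control the NOTCH1 knockdown differed by -0.24 on the log2 scale (standard error 0.14; 95% interval 0.686-fold to 1.04-fold; limma, adjusted p = 0.761). It was -0.14 without replicate 1 of the NOTCH1 knockdown, the library where FBXW7 was lowest. In the RBPJ knockdown it was 0.05 (95% interval 0.838-fold to 1.28-fold; limma, adjusted p = 0.995). FBXW7 had the smallest p of the 8 genes between the knockdowns, with a log2 difference of -0.29 (NOTCH1 minus RBPJ; 95% interval 0.664-fold to 1.01-fold; unadjusted p = 0.0598; limma, adjusted p = 0.999).

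The genes that followed FBXW7 most closely over the 6 libraries were SPOPL, which encodes a substrate adaptor of another cullin ligase, and IDH2, a mitochondrial enzyme. Their log2 values, after subtraction of each mean, differed from those of FBXW7 by a root mean square of 0.015 and 0.031, against a spread of FBXW7 of 0.14. SPOPL had 129 and 122 in the control, 99.0 and 116 in the NOTCH1 knockdown, and 133 and 129 in the RBPJ knockdown. Both genes were picked for this likeness out of all genes tested, so their values are a description.

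**Figure D3:**
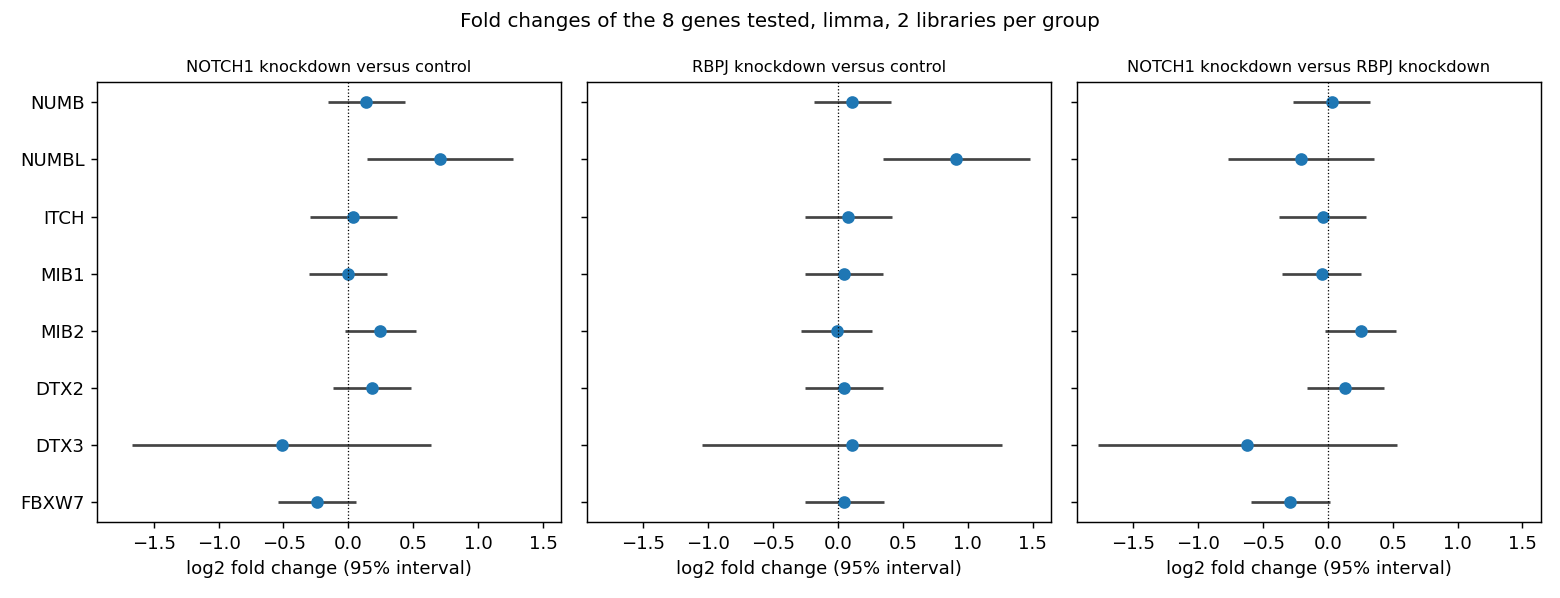
Log2 fold change (horizontal axis, on the log2(value + 1) scale) of the 8 genes tested in each of the 3 comparisons; points are limma estimates and lines 95% intervals, from 2 libraries per group. The intervals of NUMBL lie above 0 in both comparisons with the control, DTX3 has the widest interval, and all other intervals include 0.

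Counted together, the NOTCH1 knockdown had 5 of the 8 genes higher and 3 lower by sign, where 51.1% of all genes tested were higher. Their median was 0.09 on the log2 scale, against 0.0059 over all genes. In 4 of them (NUMB, NUMBL, MIB2 and DTX2) both knockdown libraries lay above both controls, which held for 18.6% of all genes, and in FBXW7 both lay below, which held for 17.2%. An unadjusted p below 0.05 was reached by 1 of the 8, NUMBL, and by 7.29% of all genes. In the RBPJ knockdown 7 were higher by sign and MIB2 was lower, against 49.7% of all genes higher, and their median was 0.06 against -0.0018 over all genes. Only NUMBL lay wholly above the control there, as did 15.3% of all genes, and none lay wholly below. NUMBL was also the 1 member with an unadjusted p below 0.05, against 4.34% of all genes. Between the knockdowns, 3 of the 8 had the higher mean log2 value in the NOTCH1 knockdown, as for 52.7% of all genes, and none had an unadjusted p below 0.05, which 3.64% of all genes had. MIB2 and DTX2 were wholly higher in the NOTCH1 knockdown (17.5% of all genes) and DTX3 and FBXW7 wholly lower (15.5%), and 0.00829% of all genes, RBPJ alone, passed the test.

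The genes around these adaptors and ligases were followed through lists of partners and substrates. Of 7 tested NOTCH receptors and ligands, on which these proteins act, none passed in any comparison, with 3 higher and 4 lower by sign after NOTCH1 knockdown and 4 and 3 after RBPJ knockdown. NOTCH2 had a log2 difference of -0.64 between the knockdowns (NOTCH1 minus RBPJ; limma, adjusted p = 0.999), with 128 and 102 against 199 and 160. Among 8 NEDD4-family ligases related to ITCH, none passed, with 5 higher and 3 lower by sign in either knockdown. WWP1 had a log2 fold change of -0.22 in the NOTCH1 knockdown, and SMURF1 one of 0.25 in the RBPJ knockdown. Of 5 tested ITCH adaptors and NUMB ligases none passed, and all 5 had negative log2 fold changes in the RBPJ knockdown, with a median of -0.08. MDM2, a ligase that binds NUMB, was highest in replicate 1 of the control, at 610, against 310 to 389 elsewhere. SIAH1, another ligase of NUMB, had a log2 fold change of -0.21 in the NOTCH1 knockdown.

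Deltex and Neuralized relatives numbered 6 tested genes, 3 higher and 3 lower by sign in each knockdown, and none passed. NEURL1, a ligase that acts on NOTCH ligands as MIB1 does, had few reads, with 31.4 and 37.9 in the control. It had 13.5 and 15.2 in the NOTCH1 knockdown and 23.1 and 10.6 in the RBPJ knockdown, so that all 4 lay below both controls, as for 7.93% of genes tested. Its log2 fold changes were -1.22 and -1.09 (standard error 0.47; limma, adjusted p = 0.621 and 0.983). NEURL2 had a log2 difference of 0.69 between the knockdowns (NOTCH1 minus RBPJ; limma, adjusted p = 0.999).

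The SCF core and other F-box proteins with WD40 repeats had a median of -0.03 over 10 genes in the NOTCH1 knockdown and of -0.02 in the RBPJ knockdown, and none passed. FBXW9 stood at 21.1 and 14.2 in control libraries, against 44.9 and 30.2 after NOTCH1 knockdown, a log2 fold change of 1.05 (limma, adjusted p = 0.623). FBXW2 had one of 0.21 in the RBPJ knockdown. None of 10 FBXW7 substrates passed, with 8 higher and 2 lower by sign in the NOTCH1 knockdown and 5 each in the RBPJ knockdown. MYC, a transcription factor that FBXW7 marks for degradation as a protein, had 93.0 and 115 in the control, 61.2 and 46.5 in the NOTCH1 knockdown and 137 and 102 in the RBPJ knockdown. Its log2 difference between the knockdowns was -1.13 (NOTCH1 minus RBPJ; limma, adjusted p = 0.823). JUN, another substrate, had a log2 fold change of 0.46 in the RBPJ knockdown (limma, adjusted p = 0.983).

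Endocytic partners of NUMB and of ligand uptake numbered 17 tested genes, of which 13 were higher by sign after NOTCH1 knockdown and 12 in the RBPJ knockdown. Their medians were 0.11 and 0.07, and none passed. EPN1 and EPN2, the epsins through which ubiquitin-tagged ligands enter the cell, had log2 fold changes of 0.31 and 0.29 in the NOTCH1 knockdown and 0.29 and 0.22 in the RBPJ knockdown. EPN1 had 5099 and 7642 in the control, so its control libraries enclosed 2 of the 4 knockdown libraries. Of 7 kinases and polarity proteins that act on NUMB, 6 were higher by sign after NOTCH1 knockdown (median 0.15) and 5 in the RBPJ knockdown (median 0.03). PRKCZ, an atypical protein kinase C, had 684 and 788 in the control, 1067 and 929 in the NOTCH1 knockdown and 835 and 768 in the RBPJ knockdown. For PRKCZ this was a log2 fold change of 0.44 in the NOTCH1 knockdown (standard error 0.13; limma, adjusted p = 0.466), and LLGL1, a polarity protein, had one of 0.25. In the NOTCH1 knockdown the median of all genes was 0.0059.

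**Figure D4:**
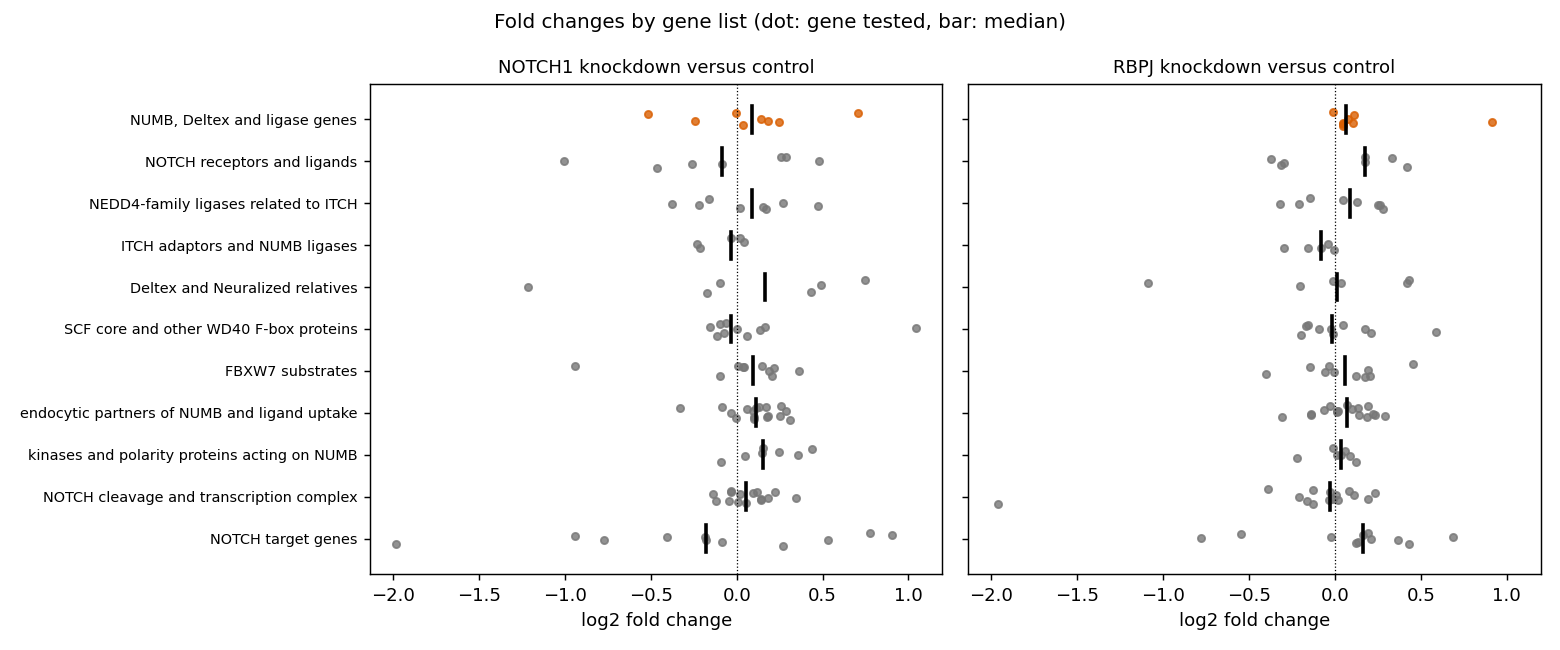
Log2 fold change against the control (horizontal axis) of every tested gene of 11 lists, in the NOTCH1 knockdown (left) and the RBPJ knockdown (right); each dot is a gene and each bar the list's median. The median of the 8 adaptor and ligase genes is 0.09 and 0.06, and RBPJ, at -1.96 in its own knockdown, is the only dot that passed the test.

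The cleavage and transcription complex of NOTCH held the 1 listed gene that passed, RBPJ. The other 14 tested genes of that list did not pass in any comparison, and the list's medians were 0.06 and -0.03. NOTCH target genes had 4 higher and 7 lower by sign in the NOTCH1 knockdown and 8 higher and 3 lower in the RBPJ knockdown, and none passed. MYC, given above as an FBXW7 substrate, is also on the target list. GATA3, a target and trophectoderm gene, had a log2 difference of 0.80 between the knockdowns (NOTCH1 minus RBPJ, limma, adjusted p = 0.999). It had 1018 and 856 in the NOTCH1 knockdown, against 737 and 391 in the RBPJ knockdown. Of the marker lists, trophectoderm genes were higher by sign in 9 of 12 in the NOTCH1 knockdown and in 4 of 12 in the RBPJ knockdown. In the same order, the counts were 6 and 4 of 8 for inner cell mass and pluripotency genes. They were 8 and 9 of 10 for hypoblast genes and 1 and 3 of 5 for cumulus, granulosa and fibroblast genes. Blood and immune genes had 1 and 3 of 4, and oocyte genes 0 and 1 of 9. None of these genes passed.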

How the data were processed

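The submitters' processing notes name Salmon 0.14.1, DESeq2 and ARS-UCD1.2. Annotation and filters: not given in the sources used here. The authors deposited 1 signal value per gene and library, judged from the values to be read counts divided by scaling factors. Of values below 12, 84.2% to 85.9% lay within 0.1 of a multiple of 1 step per library, too few to recover whole reads; the steps imply roughly 9682385 to 13594033 reads per library. Of 17922 rows, 2551 without a name (6.20% to 7.22% of a library's total) and 57 that repeated a symbol at a lower mean were left out.

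Values were taken as log2(value + 1), which understates changes of low genes. limma 3.58.1 (R 4.3.3) was fitted with group means to the 6 libraries (3 residual degrees of freedom, variance trend on level) for the 12070 genes whose mean reached 10. Benjamini-Hochberg adjustment covered all of them, at a threshold of 0.05. Nothing in the labels states separate collections of embryos, so the p-values reflect only how far these libraries differ, which may be technical. Same-numbered libraries deviated together (correlations over genes of 0.167, 0.203 and 0.213, from the data and not the labels), so a fit with the replicate number as a block is given where it moved a count.

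All 10 genes and both targeted genes are named, and from each list the genes past the threshold or, where none passed, the 2 with the smallest p. For the gene with the smallest p in a comparison, the 2 genes most alike are named. Marker lists served as checks and are given as counts. POU5F1, KRT8, NANOG, TFAP2A, COL1A1, COL3A1, HBA, HBB, PTPRC, CD3E, TYROBP, NPM2 and PAPLN were named after their values were seen. Members and lists were chosen with earlier results of these data known. A test on simulated counts for 12070 genes of the NOTCH1 knockdown comparison recovered 73% of 100 genes changed 2-fold. It recovered 93% of 100 changed 4-fold, with 12 false calls among 178. The simulated libraries were independent, with a spread taken from a trend on level. With 200 changed genes the adjusted threshold was easier to reach than in the real comparisons, where at most 1 gene passed. The recovered shares therefore do not give the power for the 8 genes. Plots were made with matplotlib 3.10.9 (Python 3.11.15). Sequences of these genes were not used here.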

Additional observations from a re-analysis of the deposited data

How the results depend on the processing

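No call of the 8 genes appeared under any of the 15 alternatives, which were the omission of each library, a replicate block, quantile normalization, median-of-ratios scaling, a fit of the compared groups alone, limma without its trend, a pseudocount of 0.1 or 10, and a minimum mean of 100 (where DTX3 was not tested) or none. Of 357 values, 334 kept their direction and side of the threshold and 23 changed sign, 22 of them on omission of a library; in the other, NUMB between the knockdowns was -0.0086 after quantile normalization. With the replicate block 138, 12 and 15 genes of the table passed in the NOTCH1 knockdown, the RBPJ knockdown and between the knockdowns; it changed no call of the 8. Without the trend 0 genes passed in the RBPJ knockdown and 0 between the knockdowns. Over omitted libraries the counts ran from 0 to 1, from 1 to 3 and from 0 to 3. The cause of these changes was not tested. In the NOTCH1 knockdown, log2 fold changes over omitted libraries ran from -1.56 to 0.54 for DTX3, -0.11 to 0.19 for ITCH and -0.14 to 0.13 for MIB1. In the RBPJ knockdown they ran from -0.088 to 0.18 for DTX2, -0.94 to 1.16 for DTX3, -0.070 to 0.23 for ITCH, -0.090 to 0.18 for MIB1 and -0.14 to 0.12 for MIB2. Between the knockdowns they ran from -0.18 to 0.095 for ITCH, -0.15 to 0.050 for MIB1, -0.050 to 0.11 for NUMB and -0.48 to 0.075 for NUMBL. Where an arm kept 1 library, it was assumed to vary like the other groups. The planned count-based tests were not run, since no raw counts were at hand. Depth limits DTX1 and DTX4, which have fewer than 9 reads per library.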
